A study of Arabidopsis thaliana with 34 samples.

Results

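The genes described here are 10 Arabidopsis genes of alternative respiration and of the signalling that runs back from stressed mitochondria to the nucleus, out of 24531 genes named on the array. They were chosen as loci by their known function, with earlier results of these data known, and no measured value enters the rule: AOX1A (AT3G22370), AOX1D (AT1G32350), NDA1 (AT1G07180), NDA2 (AT2G29990), NDB2 (AT4G05020), UPOX (AT2G21640), OM66 (AT3G50930, named BCS1 on the array), NAC013 (AT1G32870), NAC017 (AT1G34190) and UGT74E2 (AT1G05680). Each was measured by 1 of the 34558 probes. RNA came from shoots of 16-day-old plants of the Landsberg background, grown with 10 h of light and 14 h of darkness a day. Line C13 makes the haemoglobin of the bacterium Vitreoscilla (VHb) in the cytosol, line Mt62 makes it in mitochondria, and the wild type (WT) makes none. VHb is an oxygen-binding protein, and each location is represented by 1 line, whose promoter the sources used here do not state. The treated plants of each line were sealed in bags at 4% oxygen for hypoxia, or received the nitric oxide donor DETA at 500 µM, over 2 or 24 h. Untreated plants of each line were harvested at 0, 2 and 24 h.

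Mitochondria pass electrons to oxygen by 2 routes. The cytochrome route pumps protons at complexes I, III and IV, while the alternative route lets electrons enter through NAD(P)H dehydrogenases that pump no protons and leave through the alternative oxidase, which hands them from ubiquinol straight to oxygen. AOX1A encodes the main alternative oxidase of leaves and AOX1D a close relative. NDA1 and NDA2 encode dehydrogenases on the inner face of the inner membrane, and NDB2 encodes one on its outer face. When respiration is disturbed, the membrane-anchored factors NAC017 and NAC013 are released from the endoplasmic reticulum, enter the nucleus and raise a set of genes that holds AOX1A, UPOX (a small mitochondrial protein raised by oxidative stress), OM66 (an AAA-type ATPase of the outer mitochondrial membrane) and UGT74E2 (a glucosyltransferase of the auxin indole-3-butyric acid). NDA1 is also known for a transcript that follows light and the time of day.

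The authors' deposited table, the source of every value below, holds 34 differences between group means and no level of any group. In 12 of them treated plants are set against untreated plants of their line and time (the same-time control), in 12 against untreated plants of their line at 0 h (the 0 h control), and in 10 a VHb line is set against WT given the same treatment and time. Values are log fold changes, taken as log2 because the base is not stated. A gene is called listed, and said to have risen or fallen, where the p of the authors' test did not exceed 0.01. The groups had 4 array channels, or 3 for Mt62 untreated at 0 h, C13 after 2 h of hypoxia and WT after 2 h of DETA, 81 channels in all. The labels call these biological replicates and give no more on their origin, so that p-values cover the spread between these samples. No standard deviation can be computed. In its place each gene has an upper bound on the standard error, derived from its smallest listed value: 0.35 for AOX1A, 0.23 for NDA1, 0.21 for NDB2, 0.45 for UPOX, 0.30 for OM66, 0.28 for NAC013, 0.25 for NAC017 and 0.27 for UGT74E2 between 2 groups of 4 channels. Adjusted p-values of listed values come from these bounds, by a t distribution and Benjamini-Hochberg adjustment over all probes, and are therefore conservative. Those of differences computed from 2 or more columns were adjusted only over the probes with a recoverable value. Such probes were selected by having listed values, so that this adjustment need not be conservative. The smallest listed value of a gene has the same p whatever its size, because the bound was derived from it. Whether it passes depends on the other probes listed in that comparison. Where the table lists nothing, a gene's other values still confine the difference, since the columns share group means, and these limits are given as a possible range. A possible range concerns the measured difference of means and leaves out its sampling error.

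The 10 genes were listed 83 times out of 340 possible, and 64 of these values passed an adjusted p of 0.05. Over all 34558 probes and 34 comparisons 137440 values were listed, and 13389 probes were never listed. How many of all listed values passed the adjusted p is not given here. AOX1D and NDA2 were listed in none of the 34 comparisons, so that neither a bound nor a range exists for them, and whether their probes lay above background cannot be read from the table. Among the other 8 genes the number of listed comparisons ran from 4 for AOX1A and NAC017 to 23 for NDA1. Against the same-time control 32 of 120 possible values were listed, 30 of them higher and 2 lower. At 24 h of hypoxia 4, 5 and 4 of the 10 genes rose in C13, Mt62 and WT, where 17.5%, 15.1% and 18.8% of all named genes did, and 1, 0 and 1 fell, against 17.1%, 15.8% and 17.0%. At 2 h of hypoxia 2, 2 and 3 rose and 0 fell in the same order of lines, beside 9.68%, 9.37% and 8.23% of all genes higher and 10.4%, 10.0% and 9.91% lower. DETA gave 1, 2 and 2 higher at 2 h (all genes 4.81%, 5.69% and 5.81%) and 1, 2 and 2 at 24 h (3.99%, 2.72% and 5.31%). None of the 10 was lower under DETA, where 3.84%, 5.68% and 5.92% of all genes were lower at 2 h and 3.89%, 3.32% and 5.79% at 24 h. The members are too few for more than this description, and 11 of the 30 higher values belong to NDA1 alone.

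**Figure D1:**
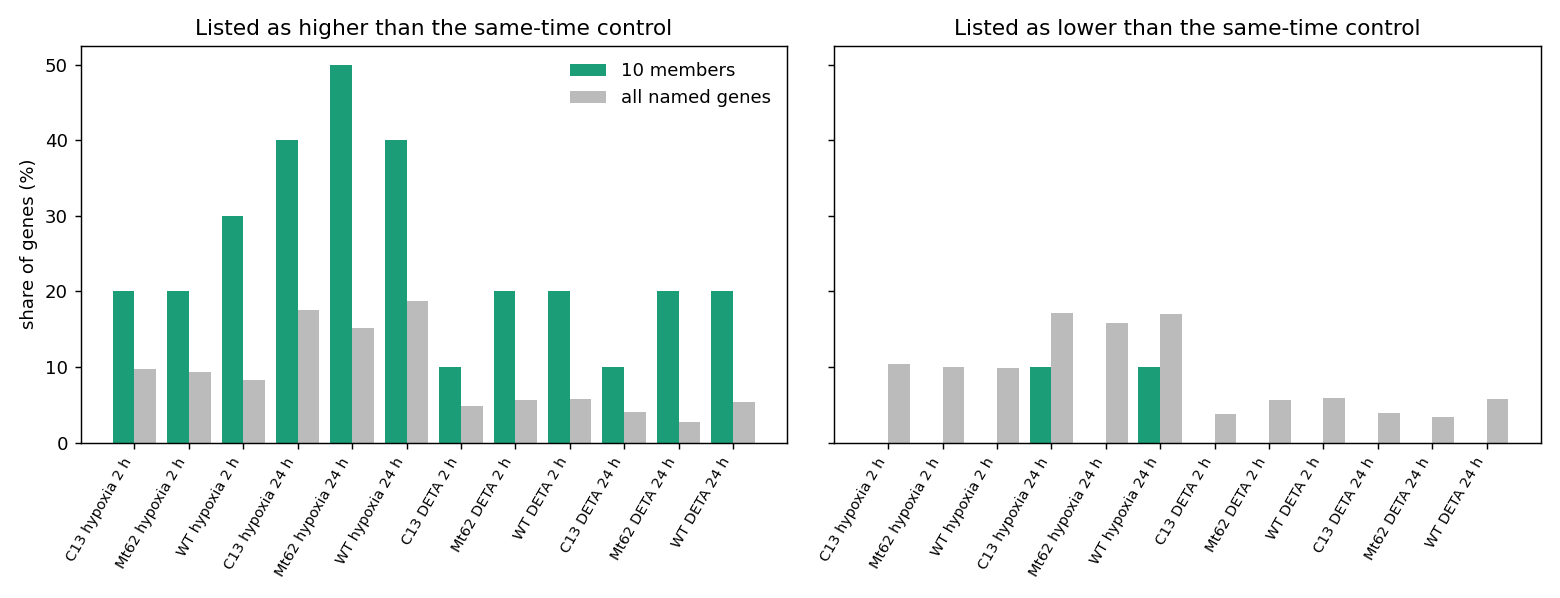
Share of genes (%) listed as higher (left) or lower (right) than the same-time control, for the 10 genes described here (green) and all 24531 named genes (grey), by treatment, time and line. The green share is highest at 24 h of hypoxia, where 5 of 10 genes rose in Mt62 and 4 of 10 in C13 and in WT.

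After 24 h of hypoxia UPOX, OM66 and NAC013 rose in every line, AOX1A rose in both VHb lines, and NAC017 fell slightly in C13 and WT. UPOX stood 3.01 higher than the control of the same time in C13, 2.37 higher in Mt62 and 1.68 higher in WT, which is 8.07-fold, 5.18-fold and 3.21-fold (adjusted p 3.01e-07, 3.53e-05 and 0.00272). NAC013, the factor that drives several of the other genes, was 2.31 higher in C13, 2.58 in Mt62 and 1.96 in WT (4.96-fold, 5.98-fold and 3.89-fold, adjusted p 1.15e-09, 9.94e-11 and 5.93e-08). OM66 was 1.78, 1.52 and 1.96 higher in the same order (3.44-fold, 2.86-fold and 3.89-fold, adjusted p 3.87e-06, 7.18e-05 and 4.66e-07).

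AOX1A, the best known target in this set, had smaller values than these 3 genes. It was 1.24 higher in C13 (2.37-fold, adjusted p 0.00439) and 0.92 higher in Mt62 (1.89-fold, adjusted p 0.0439), and in WT it was not listed, with a possible range of -0.90 to 0.90. NAC017, which acts upstream of NAC013 and is controlled largely at the protein level, stood at -0.71 in C13 and -0.72 in WT (0.61-fold in each, adjusted p 0.0272 and 0.0236). In Mt62 NAC017 was not listed (range -0.65 to 0.65). The factor gene NAC013 and its upstream factor gene NAC017 thus moved in opposite directions in C13 and WT.

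These changes were also listed, with the same sign, against the 0 h control. There UPOX was 3.11, 2.68 and 2.00 higher after 24 h of hypoxia in C13, Mt62 and WT, OM66 was 1.89, 1.53 and 1.81 higher, and NAC013 was 1.91, 2.25 and 1.47 higher. AOX1A was 0.99 higher in C13 and 0.97 in Mt62, and NAC017 was at -0.65 in C13 and in WT. In untreated plants the change between 0 and 24 h was small for these genes wherever it could be recovered. It was 0.09, 0.31 and 0.32 for UPOX, 0.11, 0.02 and -0.15 for OM66 and -0.40, -0.33 and -0.48 for NAC013 in C13, Mt62 and WT, and none of these 9 values passed an adjusted p of 0.05 (all probes 7.55%, 7.97% and 12.3%).

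At 2 h of hypoxia the set looked different, with NDA1 at its highest and the 24 h genes UPOX and OM66 not listed. NDA1 was 2.73 higher than the control of the same time in C13, 3.42 in Mt62 and 3.01 in WT (6.62-fold, 10.7-fold and 8.05-fold, adjusted p 5.56e-12, 7.47e-17 and 6.08e-15). NAC013 also rose at 2 h against the same-time control, by 1.49, 0.92 and 0.95 (adjusted p 2.14e-04, 0.0165 and 0.0146). Against the 0 h control this rise was listed in C13 (1.16) and not in Mt62 or WT (ranges -0.57 to 0.77 and -0.33 to 0.71), and the untreated plants changed between 0 and 2 h by -0.34 in C13 (adjusted p 0.578), -1.49 to -0.15 in Mt62 and -1.28 to -0.24 in WT. NDB2, the outer-face dehydrogenase, was 0.55 higher in WT, which did not pass the adjusted threshold (adjusted p 0.0804), and was not listed in C13 (range -0.27 to 0.60) or Mt62 (-0.43 to 0.55). UPOX could have moved by up to 1.26 in C13 and 1.17 in Mt62 and WT at 2 h without being listed, and OM66 by up to 0.84 in C13, 0.78 in Mt62 and 0.78 in WT.

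**Figure D2:**
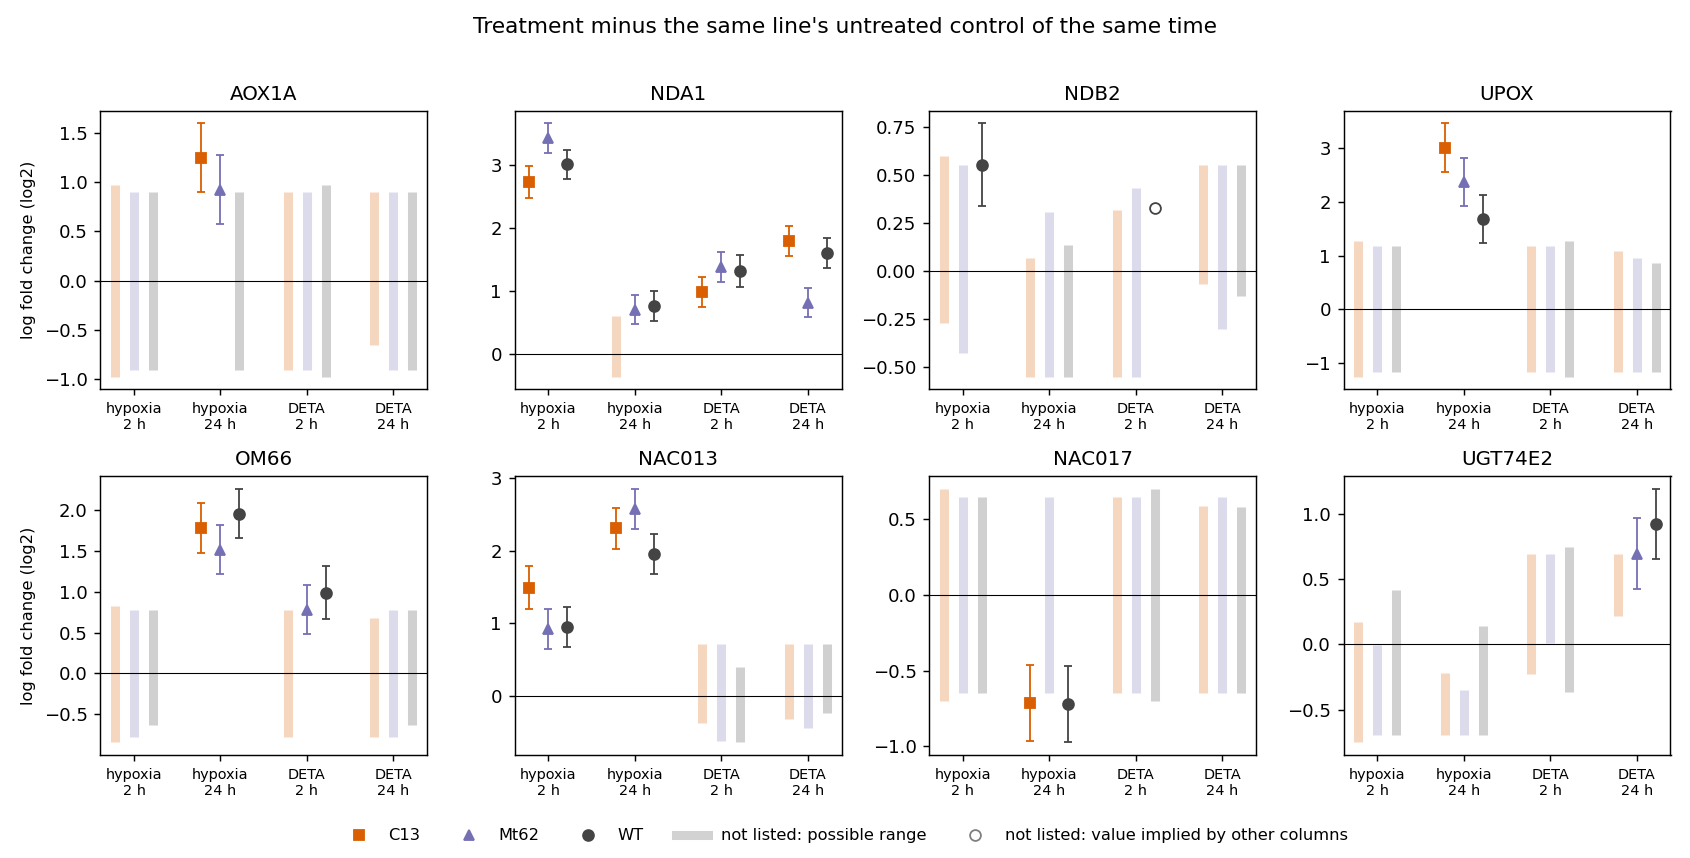
Log fold change (log2) of treated minus untreated plants of the same line and time for the 8 genes with a listed value, in C13 (orange squares), Mt62 (purple triangles) and WT (black circles). Bars on points are the upper bound on the standard error, pale bars the possible range where no value is listed, and the open circle a value implied by other columns. NDA1 is highest at 2 h of hypoxia (2.73, 3.42 and 3.01), while UPOX, OM66 and NAC013 are highest at 24 h of hypoxia. AOX1A is listed only at 24 h of hypoxia, in C13 and Mt62.

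NDA1 was the one gene of the set that rose under both stresses and at both times. After 24 h of hypoxia it was 0.71 higher in Mt62 and 0.76 higher in WT than the control of the same time (adjusted p 0.0181 and 0.00891) and was not listed in C13 (range -0.36 to 0.60). Under DETA it was 0.98, 1.38 and 1.32 higher at 2 h in C13, Mt62 and WT (adjusted p 0.0064, 2.99e-05 and 2.19e-04). At 24 h of DETA the values were 1.80, 0.82 and 1.60 (adjusted p 2.22e-07, 0.0532 and 1.18e-06).

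The direction of NDA1 was, however, tied to the control. Untreated plants of 2 h differed from those of 0 h by -3.38 in C13, -3.69 in Mt62 and -3.44 in WT (adjusted p 3.13e-18, 1.96e-18 and 1.99e-18, where 14.6%, 15.8% and 17.6% of probes with a recoverable value passed). At 24 h untreated plants were still -1.89 below 0 h in Mt62 and -2.11 in WT (adjusted p 3.62e-08 and 2.14e-10, beside 7.97% and 12.3% of probes), and in C13 the possible range was -2.19 to -1.22. Untreated plants of 24 h were in turn 1.81 above those of 2 h in Mt62 and 1.33 above them in WT (adjusted p 1.01e-07 and 1.06e-04). The sources used here do not state the clock time of the harvests. By their labels those of 0 and 24 h lie a full day apart. In the differences between 2 h and the other times, time of day and time in the experiment cannot be told apart.

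Set against 0 h, every listed NDA1 value was therefore negative. Hypoxia for 2 h left NDA1 at -0.65 in C13 (adjusted p 0.0655), and the values implied by other columns were -0.27 in Mt62 and -0.43 in WT. Hypoxia for 24 h gave -1.58, -1.18 and -1.34 in C13, Mt62 and WT (adjusted p 1.61e-07, 1.96e-04 and 4.68e-06). DETA for 2 h gave -2.40, -2.31 and -2.12 (adjusted p 1.49e-11, 5.20e-10 and 3.97e-09). DETA for 24 h gave -1.07 in Mt62 and an implied -0.51 in WT, while C13 had a range of -0.39 to 0.58. In all 10 cases in which NDA1 was higher than the same-time control and the 0 h value could be recovered, the sign against 0 h was the opposite one. In these 10 cases the measured mean of the treated plants thus lay between the untreated plants of 0 h and those of the same time. The implied values were not listed as different from 0 h, and C13 after 2 h of hypoxia did not pass the adjusted threshold. C13 after 24 h of DETA could lie on either side of 0 h.

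Because so many of its differences were listed, NDA1 could be placed on 1 scale over 19 of the 21 groups. In WT, relative to the 0 h control, the order was hypoxia 2 h at -0.43, DETA 24 h at -0.51, hypoxia 24 h at -1.34, untreated 24 h at -2.11, DETA 2 h at -2.12 and untreated 2 h at -3.44. Neighbours in this order that lay closer than 0.60 to 0.65, the largest gap that need not be listed, were 0 h and hypoxia 2 h, hypoxia 2 h and DETA 24 h, and untreated 24 h and DETA 2 h. The others were farther apart. Mt62 ran from untreated 0 h through hypoxia 2 h (-0.27 against its own 0 h control), DETA 24 h (-1.07), hypoxia 24 h (-1.18), untreated 24 h (-1.89) and DETA 2 h (-2.31) to untreated 2 h (-3.69), with gaps below that limit between 0 h and hypoxia 2 h, between the 24 h treatments, and between untreated 24 h and DETA 2 h. In C13, where DETA 24 h and untreated 24 h could not be placed, hypoxia 2 h at -0.65 was followed by hypoxia 24 h at -1.58, DETA 2 h at -2.40 and untreated 2 h at -3.38. The 2 h untreated group was the lowest of the placed groups in all 3 lines.

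**Figure D3:**
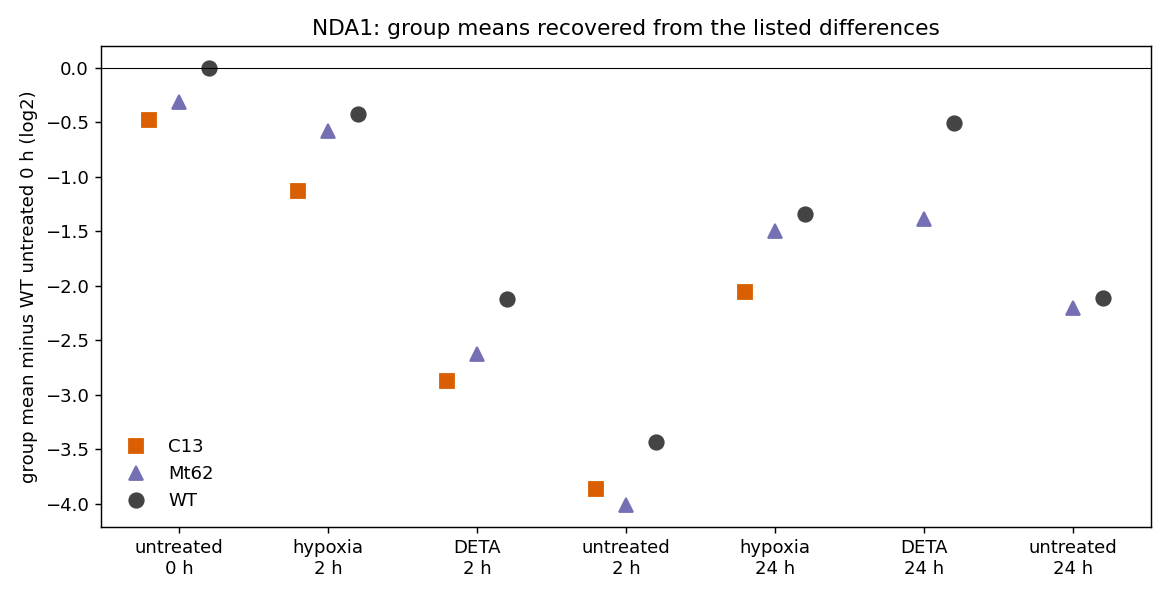
NDA1 group means minus the WT untreated mean of 0 h (log2), recovered from the listed differences, for C13 (orange squares), Mt62 (purple triangles) and WT (black circles); the C13 groups of DETA 24 h and untreated 24 h could not be recovered. Untreated plants of 2 h are the lowest in each line (-3.44 in WT), and the treated plants of 2 h lie between them and the 0 h plants.

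NDB2 and UGT74E2 were each lower than the 0 h control in 10 of 12 comparisons, while the same-time control listed NDB2 once and UGT74E2 in 2 comparisons, always as higher. NDB2 was at -0.60, -0.66 and -0.62 after 2 h of hypoxia in C13, Mt62 and WT (adjusted p 0.0655, 0.0531 and 0.0486), at -1.04, -0.85 and -1.17 after 24 h of hypoxia, and at -0.88, -0.78 and -0.84 after 2 h of DETA, with adjusted p between 1.12e-05 and 0.0208 in the last 6. After 24 h of DETA it was listed in WT, at -0.75 (adjusted p 0.179). In untreated plants NDB2 fell between 0 and 2 h by -1.17 in WT (adjusted p 1.14e-05), with possible ranges of -1.20 to -0.33 in C13 and -1.21 to -0.23 in Mt62. At 24 h its untreated change lay between -1.11 and -0.48 in C13, -1.15 and -0.29 in Mt62 and -1.31 and -0.62 in WT. The 0 h differences of NDB2 were thus accompanied by a decline of the untreated plants in each line.

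In measured values UGT74E2 was lower against 0 h than NDA1 in the 6 hypoxia comparisons, and NDA1 was lower than UGT74E2 after 2 h of DETA. No difference between the genes was tested, and in C13 after 24 h of hypoxia they were close (-1.61 for UGT74E2 and -1.58 for NDA1). UGT74E2 stood at -2.00, -2.33 and -1.65 after 2 h of hypoxia in C13, Mt62 and WT (0.25-fold, 0.20-fold and 0.32-fold, adjusted p 6.27e-07, 1.42e-08 and 6.11e-06). After 24 h of hypoxia it was at -1.61, -1.80 and -1.48 and after 2 h of DETA at -1.47, -1.63 and -1.31 (adjusted p between 1.67e-06 and 8.46e-04). After 24 h of DETA it was listed in C13, at -0.69 (adjusted p 0.478). The untreated plants declined as well. Their possible range from 0 to 2 h was -2.17 to -1.25 in C13, -2.32 to -1.64 in Mt62 and -2.06 to -0.95 in WT, and from 0 to 24 h it was -1.39 to -0.91, -1.45 to -1.10 and -1.62 to -0.78. Against the control of the same time, hypoxia left UGT74E2 unlisted in every line and at both times, and its ranges after 24 h of hypoxia lay below 0 in C13 (-0.69 to -0.22) and Mt62 (-0.69 to -0.35) and included 0 in WT (-0.69 to 0.14). UGT74E2 was thus not listed as higher at the time when UPOX, OM66 and NAC013 rose.

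Counted over the set, the 0 h control gave 13 higher and 32 lower values among 120. In C13, Mt62 and WT, 3, 2 and 2 of the 10 genes were lower after 2 h of hypoxia (all genes 11.2%, 9.44% and 9.89%), 4, 3 and 4 after 24 h of hypoxia (18.0%, 16.1% and 17.9%), 3, 4 and 4 after 2 h of DETA (6.58%, 7.39% and 7.65%) and 1 in each line after 24 h of DETA (1.53%, 1.59% and 1.42%). Higher counts were 4, 4 and 3 after 24 h of hypoxia (19.0%, 15.4% and 19.2%), and 1 each in C13 after 2 h of hypoxia (NAC013, 1.16, beside 10.9% of all genes) and after 2 h of DETA (OM66, 0.80, adjusted p 0.0999, beside 8.08%). The other counts of higher genes were 0, in Mt62 and WT at 2 h of hypoxia (all genes 9.15% and 9.11%), in Mt62 and WT at 2 h of DETA (7.43% and 8.24%) and in C13, Mt62 and WT at 24 h of DETA (1.52%, 1.83% and 1.36%). NAC013 was at -0.77 in Mt62 and -0.88 in WT after 2 h of DETA against 0 h, with adjusted p of 0.099 and 0.0515.

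**Figure D4:**
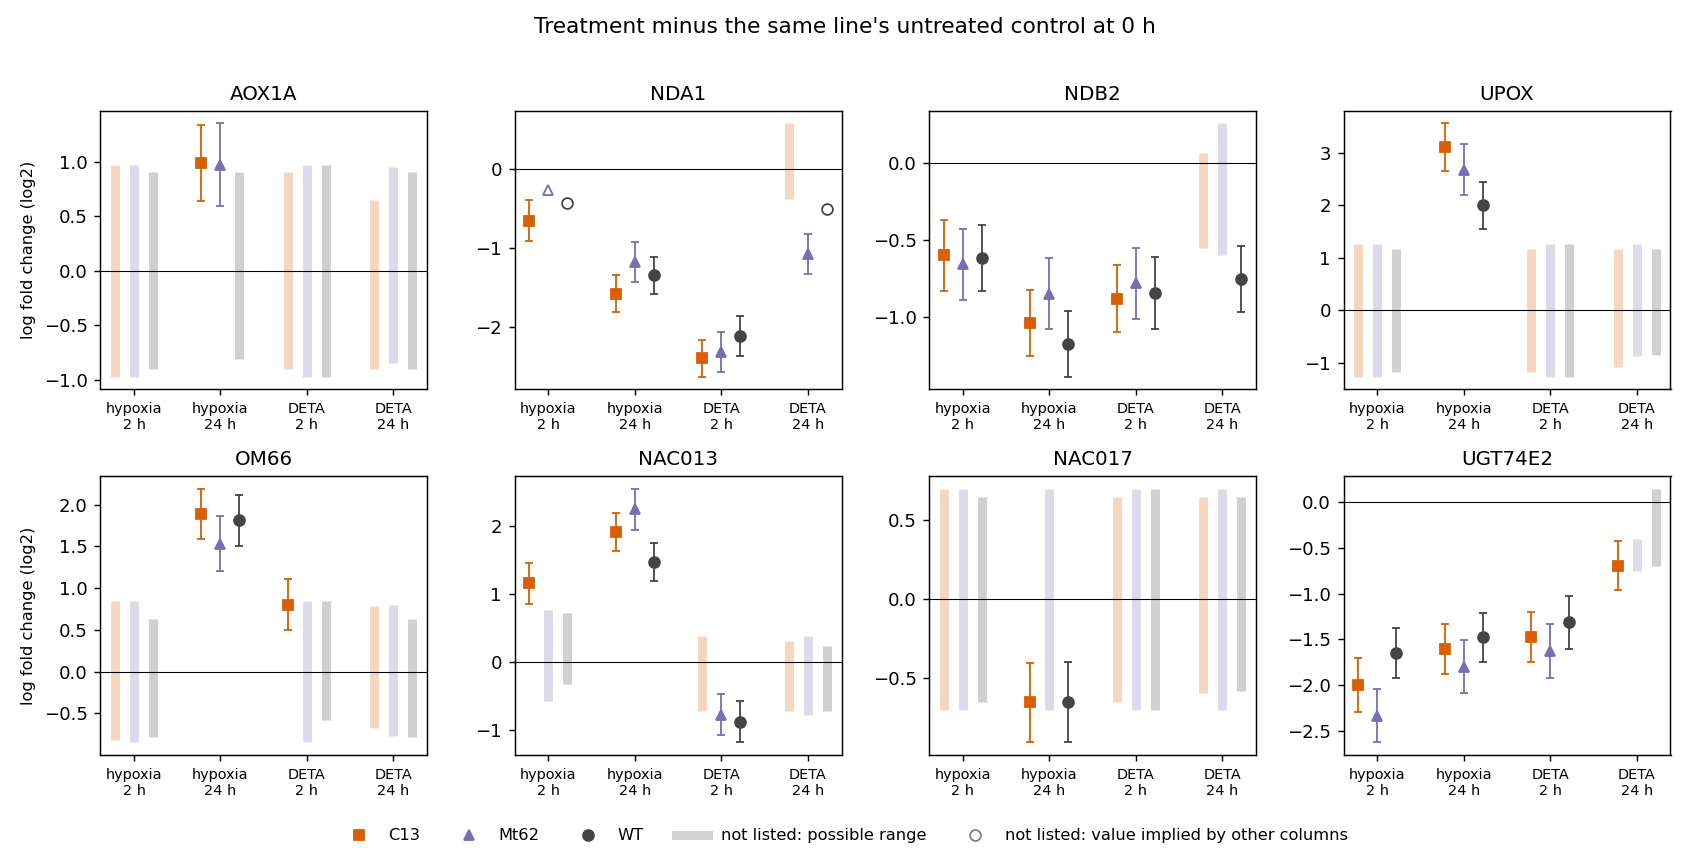
Log fold change (log2) of treated plants minus the 0 h control of their line for the 8 genes with a listed value, with colours, bars and pale ranges as for the same-time control. NDA1, NDB2 and UGT74E2 lie below 0 wherever they are listed, and UPOX, OM66 and NAC013 lie above 0 at 24 h of hypoxia.

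Apart from NDA1, the nitric oxide donor listed few of these genes against the control of the same time. OM66 was 0.78 higher in Mt62 and 0.99 higher in WT at 2 h of DETA, neither passing the adjusted threshold (adjusted p 0.129 and 0.0629), and was not listed in C13 (range -0.78 to 0.78). UGT74E2 was 0.70 higher in Mt62 (adjusted p 0.243) and 0.93 higher in WT (1.90-fold, adjusted p 0.0276) at 24 h of DETA, and its range in C13 was 0.22 to 0.69. AOX1A, UPOX, NAC013 and NAC017 were listed in no line at either time of DETA. Their ranges set how large a change could have gone unlisted. At 24 h of DETA these were -0.65 to 0.90 for AOX1A, -1.17 to 1.08 for UPOX, -0.31 to 0.71 for NAC013 and -0.65 to 0.59 for NAC017 in C13, and they were of similar width in the other lines.

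The contrast between the stresses at 1 time was tested directly where both values could be recovered, since their shared control cancels. NDA1 was 1.74, 2.04 and 1.69 higher after 2 h of hypoxia than after 2 h of DETA in C13, Mt62 and WT (adjusted p 9.51e-08, 1.03e-10 and 1.67e-07, with 26.6%, 31.5% and 26.6% of all recoverable probes passing). At 24 h the difference was -0.84 in WT (adjusted p 0.00151) and -0.11 in Mt62 (adjusted p 0.737), where 61.5% and 57.3% of recoverable probes passed, and its range in C13 was -2.16 to -1.19. UGT74E2 was lower after hypoxia than after DETA, by -0.70 in Mt62 at 2 h (adjusted p 0.0386) and by -0.91 in C13 at 24 h (adjusted p 0.00276, beside 56.2% of probes). At 2 h its values of -0.52 in C13 and -0.33 in WT did not pass (adjusted p 0.209 and 0.502). UPOX, OM66 and NAC013 had possible ranges wholly above 0 at 24 h in every line: 1.94 to 4.18, 1.42 to 3.54 and 0.83 to 2.85 for UPOX in C13, Mt62 and WT, 1.11 to 2.56, 0.73 to 2.30 and 1.18 to 2.60 for OM66, and 1.60 to 2.62, 1.86 to 3.02 and 1.24 to 2.19 for NAC013. These ranges leave 0 out by construction, since the 3 genes were listed at 24 h of hypoxia and not at 24 h of DETA. Their measured means were higher under hypoxia, and the differences could not be tested.

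Between 2 and 24 h of hypoxia NDA1 fell in every line, while the measured means of UPOX, OM66 and NAC013 were higher at 24 h in differences that did not pass or could not be tested. The level of NDA1 at 24 h minus that at 2 h was -0.93, -0.91 and -0.92 in C13, Mt62 and WT (adjusted p 0.00519, 0.00269 and 0.0015, with 21.6%, 24.0% and 34.6% of recoverable probes passing). UPOX had a range of 1.84 to 4.37 in C13, 1.42 to 3.95 in Mt62 and 0.83 to 3.17 in WT, and OM66 of 1.04 to 2.71, 0.69 to 2.38 and 1.18 to 2.60. NAC013 was 0.75 higher at 24 h in C13 (adjusted p 0.0631), with ranges of 1.48 to 2.81 in Mt62 and 0.76 to 1.80 in WT. The ranges of these 3 genes leave 0 out by construction, since against 0 h they were listed at 24 h and not at 2 h. Under DETA NDA1 went the other way, with the 24 h level above the 2 h level by 1.24 in Mt62 and 1.61 in WT (adjusted p 1.30e-05 and 3.50e-07, beside 55.9% and 58.9% of probes). UGT74E2 likewise was 0.78 higher at 24 h than at 2 h of DETA in C13 (adjusted p 0.0126, beside 53.4%). Measured against the control of each time, the response of NDA1 to hypoxia was smaller at 24 h than at 2 h by -2.72 in Mt62 and -2.24 in WT, and that of NAC013 larger by 1.66 in Mt62 (adjusted p 6.83e-09, 3.96e-07 and 0.00132). For NAC013 the same difference did not pass in C13 (0.82, adjusted p 0.215) or WT (1.01, adjusted p 0.0518), and 12.5%, 15.7% and 24.6% of recoverable probes passed in C13, Mt62 and WT.

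Few of the 10 genes were listed between a VHb line and WT under the same condition. There were 6 listed values of 100, 4 of them from NDA1, and none passed an adjusted p of 0.05 over all probes. NDA1 was lower in C13 than in WT after 2 h of hypoxia (-0.71, adjusted p 0.799), 24 h of hypoxia (-0.72, adjusted p 0.391) and 2 h of DETA (-0.76, adjusted p 0.538), and lower in Mt62 than in WT after 24 h of DETA (-0.88, adjusted p 0.0822). UPOX was 1.17 higher in C13 after 24 h of hypoxia (adjusted p 0.477), and NAC013 was 0.71 higher in Mt62 at that time (adjusted p 0.33). The UPOX and NAC013 values are those from which their genes' bounds were derived, so that their adjusted p says nothing about their size. The bound of NDA1 came from another value, that of C13 after 2 h of hypoxia against 0 h (-0.65). The share of all genes listed in these comparisons was 1.62%, 2.94% and 2.6% for C13 after 2 h of hypoxia, 24 h of hypoxia and 2 h of DETA, and 4.3% and 3.73% for Mt62 after 24 h of hypoxia and 24 h of DETA. In the other 5 comparisons none of the 10 genes was listed, beside 2.78% and 2.94% of all genes for C13 at 0 h and after 24 h of DETA, and 0.775%, 1.23% and 1.32% for Mt62 at 0 h and after 2 h of hypoxia and of DETA.

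NDA1 values of the VHb lines relative to WT could also be recovered where they were not listed. At 0 h the implied values were -0.48 in C13 and -0.31 in Mt62. In untreated plants of 2 h they were -0.42 and -0.57 (adjusted p 0.30 and 0.713, beside 7.8% and 0.0% of recoverable probes). Of the NDA1 values of a VHb line minus WT that could be recovered, each was negative, from -0.88 to -0.09, and the range for C13 after 24 h of DETA was -0.36 to 0.60. These values share the WT samples of each condition and are not independent of each other.

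A value listed in 1 line and not in another does not by itself show that the lines responded differently. The response of a VHb line minus that of WT, each against its own control of the same time, could be computed for 18 of 80 cases, and none passed an adjusted p of 0.05. Among all probes with a value, 0.123%, 0.0%, 1.07% and 0.455% passed for C13 at 2 and 24 h of hypoxia and 2 and 24 h of DETA, and 0.0718%, 0.0262%, 0.125% and 1.17% for Mt62. The difference for UPOX after 24 h of hypoxia was 1.33 in C13 (standard error at most 0.64, p 0.0427, adjusted p 1.00) and 0.69 in Mt62 (adjusted p 1.00). NDA1 after 24 h of DETA responded less in Mt62 by -0.78 (standard error at most 0.33, p 0.0215, adjusted p 0.294), and in the other computed cases its response differed from WT by between -0.33 and 0.42. For AOX1A after 24 h of hypoxia the range of the difference from WT was 0.34 to 2.14 in C13 and 0.02 to 1.82 in Mt62. Both ranges leave 0 out by construction, since AOX1A was listed in the VHb lines and not in WT. The range for Mt62 comes close to 0, and neither difference could be tested. Ranges that left 0 out were also those of NDA1 in C13 (-1.12 to -0.16) and NAC017 in Mt62 (0.07 to 1.37) after 24 h of hypoxia. Under DETA they were those of OM66 (-1.77 to -0.21) and NDB2 (-0.88 to -0.01) in C13 at 2 h, and UGT74E2 in C13 at 24 h (-0.71 to -0.23). These differences could not be tested either. The p-values in this comparison come from the bound on the standard error and a t distribution, adjusted over the probes with a value.

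**Figure D5:**
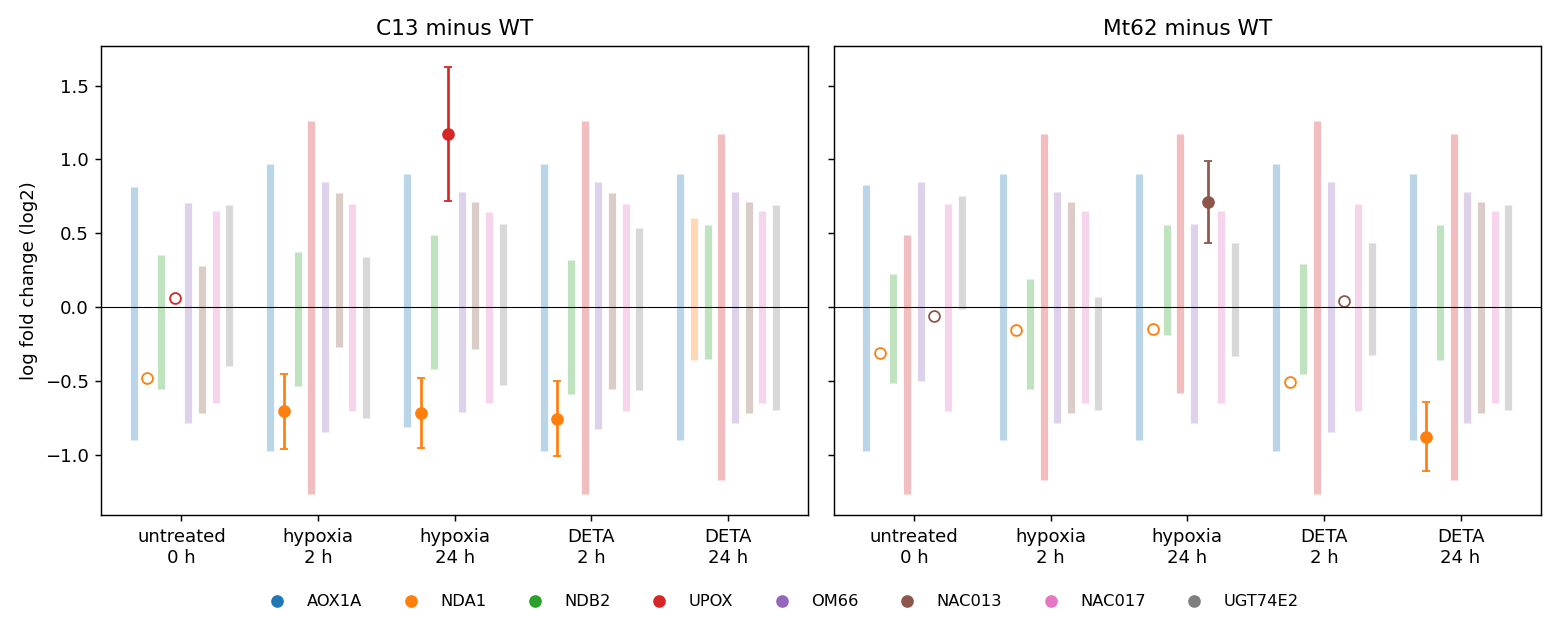
Log fold change (log2) of C13 minus WT (left) and Mt62 minus WT (right) under each condition for the 8 genes with a listed value. Filled points are listed values with the upper bound on the standard error, open points are values implied by other columns, and pale bars are possible ranges. The 6 listed values are the 4 NDA1 points between -0.88 and -0.71, UPOX in C13 at 1.17 and NAC013 in Mt62 at 0.71.

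The lists of related genes below are described against the same-time control. Of 10 further measured genes of the alternative route, 4, 3 and 3 rose and 2, 2 and 2 fell at 24 h of hypoxia in C13, Mt62 and WT, beside the shares of all genes given above. PTOX, the plastid relative of the alternative oxidase, was 0.88, 0.57 and 0.80 higher, and the uncoupling protein gene UCP1 was 0.54, 0.55 and 0.56 higher while UCP2 was at -0.62, -0.57 and -0.53. At 2 h of hypoxia NDC1, a type II dehydrogenase found in mitochondria and plastids, was 0.55, 0.48 and 0.44 higher. After 2 h of DETA UCP1 was the 1 gene of these 10 that rose in all lines, by 0.38, 0.35 and 0.51.

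Other targets of mitochondrial signalling rose mostly at 24 h of hypoxia, when 3, 4 and 5 of 9 were higher and 1 was lower in each line, beside 17.5%, 15.1% and 18.8% of all genes higher and 17.1%, 15.8% and 17.0% lower. HSP23.5, a small heat shock protein of mitochondria, had the largest values among the genes named here, 5.21, 4.24 and 4.98 higher in C13, Mt62 and WT at 24 h and 2.57, 2.68 and 2.80 at 2 h. The transporter gene DTX3 was 1.31, 1.58 and 1.93 higher and HRG1, a gene raised by hypoxia, 0.91, 1.52 and 1.40. SOT12, a sulfotransferase gene, fell at 2 h of hypoxia, to -1.23, -1.13 and -1.22. Against the same-time control none of the 9 was listed under DETA, in any line at either time. Of all genes 2.72% to 5.81% were higher and 3.32% to 5.92% lower in these comparisons, so that none of 9 is near those shares.

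Among 9 measured regulators of this signalling, 2, 2 and 3 rose and 1, 2 and 3 fell at 24 h of hypoxia, where the same shares of all genes apply. Most of these counts are near those shares. WRKY40, a repressor that binds several stress genes, was 3.05, 2.04 and 2.65 higher in C13, Mt62 and WT, and NAC053, a membrane-anchored relative of NAC013, was 0.93, 1.34 and 0.89 higher. RCD1, a nuclear protein that binds NAC013 and restrains it, was at -0.64, -0.66 and -0.49.

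Of 28 measured genes of the cytochrome route and its complexes, 11, 6 and 11 rose and 4, 1 and 3 fell at 24 h of hypoxia, shares of all genes being 17.5%, 15.1% and 18.8% higher and 17.1%, 15.8% and 17.0% lower. The cytochrome c gene CYTC-2 was 2.26, 2.33 and 1.86 higher at 24 h and 1.89, 1.74 and 1.80 at 2 h. The complex III Rieske genes RISP-1 and RISP-2 were 0.70, 0.82 and 0.85 and 0.85, 0.69 and 0.80 higher at 24 h, and the complex II gene SDH2-2 was at -0.50, -0.47 and -0.95. Against the same-time control 1 of the 28 genes was listed under DETA, in Mt62 at 24 h. Across the DETA comparisons 2.72% to 5.81% of all genes were higher and 3.32% to 5.92% lower.

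The genes whose listed comparisons and signs were most like those of 3 members were found by the Jaccard index over the 34 columns, as a description. OM66, with 9 listed comparisons, was closest to the senescence-associated gene SAG21 (index 0.9), followed by AT4G34360 and AT2G31090 (0.889 each). UPOX, with 7 comparisons, shared all of them with 10 genes, of which AT2G07678, the glutathione transferase gene GSTU2 and the small heat shock protein gene HSP18.2 were closest in size. AOX1A had only 4 comparisons, which 16 genes matched completely, the closest in size being AT2G14270, AT3G16510 and AT4G17250. With so few comparisons per gene, many genes share a pattern.

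The tissue label was set beside 7 measured root marker genes, since shoots were harvested, but the table holds no level from which their presence could be judged. The root glucosidase gene PYK10, by its 3 probes, was at -1.94 to -1.63 in Mt62 and -1.31 to -1.07 in WT after 24 h of hypoxia against the same-time control, and at 0.92 to 1.09 in WT after 24 h of DETA. The potassium channel gene AKT1 was 0.75 higher in C13 and 0.58 higher in WT after 24 h of hypoxia, and 0.47 higher in C13 and 0.69 higher in Mt62 after 2 h of DETA. The other 5 markers were not listed against the same-time control, and the part of root RNA in the results above was not tested. In whole shoots a change of the transcript per cell and a change in the number of cells that hold it cannot be told apart.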

How the data were processed

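RNA from shoots of 21 groups was hybridized in 81 channels on 7 slides, 3 dyes to a field. The values are log fold changes, taken as log2, that the authors deposited for 34 comparisons after quantile normalization, ComBat and an empirical Bayes test, with p above 0.01 set to null, per the series' design text. No value per channel was used. Aligner and genome build do not apply, and no coordinates are given. Probes were named by accession (24525), symbol (1821) or as given (20), and 8192 had no gene.

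The columns were checked to be differences of 1 set of group means (2306 loops, largest residual 2e-09). A gene's smallest listed value, divided by 2.58 and scaled by channel numbers, bounds its standard error, on the premise of 1 variance per probe, which 98.6% of the 4473 testable rows met. P-values used a t distribution with 60 degrees of freedom. Benjamini-Hochberg adjustment was over all probes for listed values, and over the probes with a recoverable value for computed differences. Possible ranges came from linear programming. Steps were tested on simulated data. Python 3.11.15, numpy 2.4.6, pandas 2.3.3, scipy 1.17.1 and matplotlib 3.10.9 were used. All 10 members are named in each comparison, with up to 4 genes of each other list by the size of a change shared by all lines, and 3 pattern neighbours of AOX1A, UPOX and OM66. The members and lists were chosen with earlier results of these data known. A protein and promoter comparison was planned and not run.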

Additional observations from a re-analysis of the deposited data

Results flagged for a closer look

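The response to hypoxia differed between 24 h and 2 h in 3 cases by a test of the difference itself, with the bound on the standard error and Benjamini-Hochberg adjustment over all probes with a value in the authors' deposited table. NDA1 responded less at 24 h than at 2 h, by -2.72 in Mt62 (0.71 at 24 h and 3.42 at 2 h, adjusted p 6.83e-09) and by -2.24 in WT (0.76 and 3.01, adjusted p 3.96e-07). NAC013 responded more at 24 h, by 1.66 in Mt62 (2.58 and 0.92, adjusted p 0.00132). The same difference for NAC013 was 0.82 in C13 (adjusted p 0.215) and 1.01 in WT (adjusted p 0.0518). The untreated level of NDA1 also differed between the times, by 1.81 in Mt62 and 1.33 in WT (24 h minus 2 h), and its part in these differences was not tested.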

How the results depend on the processing

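With the 0 h control in place of the same-time control, 10 NDA1 values and 1 NDB2 value changed sign, where the untreated plants themselves had changed. NDA1 was then at -0.65 in C13, -0.27 in Mt62 and -0.43 in WT after 2 h of hypoxia, -1.18 in Mt62 and -1.34 in WT after 24 h of hypoxia, -2.40, -2.31 and -2.12 in C13, Mt62 and WT after 2 h of DETA, and -1.07 in Mt62 and -0.51 in WT after 24 h of DETA, and NDB2 was at -0.62 in WT after 2 h of hypoxia. The NDA1 values of Mt62 and WT after 2 h of hypoxia were implied by other columns and not listed. The same holds for NDA1 in WT after 24 h of DETA. Against the 0 h control NAC013 in Mt62 and WT after 2 h of hypoxia was neither listed nor implied. Nor was OM66 in Mt62 and WT after 2 h of DETA. After 24 h of DETA this also holds for NDA1 in C13 and UGT74E2 in Mt62 and WT. The count of members called, in either direction, became 4 (from 2) for C13 and 2 (from 3) for WT at 2 h of hypoxia. At 24 h of hypoxia it became 8 for C13 and 7 for Mt62 and for WT (from 5 in each). It became 4 in each line at 2 h of DETA (C13 1, Mt62 2 and WT 2 with the same-time control), and 1 (from 2) for Mt62 and WT at 24 h of DETA. The count stayed the same for Mt62 at 2 h of hypoxia and C13 at 24 h of DETA. Requiring an adjusted p of 0.05 left 2 of 3 members in WT at 2 h of hypoxia, and 1 of 2 in Mt62 and in WT at 2 h of DETA. It left 0 of 2 in Mt62 at 24 h of DETA, and 0 in each of the 5 comparisons with WT that had any. Requiring a size of at least 1 left 1 in Mt62 (of 2) and WT (of 3) at 2 h of hypoxia. At 24 h of hypoxia it left 4 of 5 in C13 and 3 of 5 in Mt62 and WT. Under DETA it left 0, 1 and 1 in C13, Mt62 and WT at 2 h, and 0 and 1 in Mt62 and WT at 24 h. Of the members listed against WT it left 1, UPOX in C13 at 24 h of hypoxia, and 0 in the other 4 comparisons. The shares of all genes that meet the adjusted p or the size are not given here, so these counts cannot be set beside them. Naming probes by accession only changed no count. Requiring every probe of a gene could not change a count, since each member has 1 probe. None of the 18 response differences had passed, and 20 degrees of freedom only raise p, so that this setting could not change them. Channel numbers of 4 for C13 after 2 h of hypoxia and 3 for Mt62 after 24 h of hypoxia changed none of the 18. With those channel numbers, an alternative chosen after seeing the data, all 62 ranges that exclude 0 kept their side. No paired analysis was possible because the table holds no value per sample, and for the same reason no replicate could be left out. A gene that was never listed has no limit on its change, and signal over background is not known.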
